A study of Mus musculus with 4 samples.

Results

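Mast cells were the 574 cells that carry the mast cell annotation of the study, among 17674 cells of orthotopic CT26 tumors. The annotation was taken unchanged, and no measured value was used to choose the cells beyond the clustering behind that name. Of these cells, 405 came from Cyp51-KO tumors and 169 from sg-Ctrl tumors. CT26 is a mouse colorectal cancer line, which was injected orthotopically into male BALB/c mice aged 8 to 10 weeks. In the Cyp51-KO group the injected CT26 cells carried a lentiviral Cas9 construct with TagBFP and a guide against Cyp51, which encodes lanosterol 14-alpha demethylase of cholesterol synthesis. In the sg-Ctrl group they carried the same construct with a control guide. In both groups the construct was given to the tumor cells in culture, so the mast cells are host cells that never received a guide. The construct-bearing cells were sorted as a population by BFP, and nothing in the sources used here says that they were 1 clone. Tumors were taken at day 26, 9 in the Cyp51-KO group and 12 in the sg-Ctrl group, and their cells were pooled. Bulk CD45+ leukocytes, CD3+ T cells and BFP+ tumor cells were sorted separately and mixed at 50%, 40% and 10%. By these gates mast cells belonged to the bulk leukocyte sort. The gates were not complete, since 153 cells of Cyp51-KO and 67 of sg-Ctrl tumors carry the intestinal annotation.

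Mast cells are tissue-resident leukocytes that mature from bone marrow progenitors under the growth factor receptor Kit. They carry IgE on the high-affinity receptor that includes Fcer1a, and they store histamine, heparin and proteases in granules that are released on activation. In the mouse, connective tissue mast cells hold the chymases Cma1 and Mcpt4, the tryptases Tpsb2 and Tpsab1 and the carboxypeptidase Cpa3, whereas mucosal mast cells of the gut hold Mcpt1 and Mcpt2. The study lists Cma1, Mcpt4, Tpsb2, Tpsab1, Cpa3, Fcer1a and the histamine-forming enzyme Hdc among the leading genes of this cluster, both groups together, and the mucosal protease Mcpt2 further down. On GRCm38 (GENCODE M21), Cma1 lies on chromosome 14 from 55941451 to 55944675 on the minus strand, in a run of protease genes that also holds Mcpt4 from 56059629 to 56062313. The table analysed here holds no values per gene. The label could therefore not be checked against these markers in each group, and no gene of mast cells was compared between groups.

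Each cell came with its number of unique molecular identifiers (UMIs, a count of captured RNA molecules), its number of genes detected, its percentage of mitochondrial UMIs and its cluster name. The series lists 2 samples per group, but which of them a cell came from is not marked, and whether they are separate libraries or repeat runs of 1 library is not known here. Each group was thus 1 sample, with no test and no p-value. Intervals are exact 95% intervals that cover counting error only, not differences between tumors, sorts or libraries. Where the intervals of the groups overlap, a difference beyond counting error can still be present, so overlap does not show that the groups were equal. Cell barcodes did not repeat within either group, which does not settle whether the samples were separate libraries. Across groups 98 barcodes were shared. They included the barcodes of 7 mast cells, in each case with a cell of another annotation in the other group. The whole series differed in depth, with a median of 6508.5 UMIs per cell in Cyp51-KO tumors and 7822.5 in sg-Ctrl tumors.

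Mast cells had the fewest UMIs of all 20 annotations in both groups. Among Cyp51-KO tumors, UMIs per mast cell ran from 501 to 35085 around a median of 1785 (95% interval 1543 to 2219). In sg-Ctrl tumors they ran from 522 to 54565, with a median of 2136 (1874 to 2860). The ranges and the intervals of the medians overlapped, and the log2 ratio of the medians was -0.26. The other myeloid cells had medians of 9919 and 10532.5 UMIs. Next to mast cells in the order of medians came Th1-like cells in Cyp51-KO tumors, at 1860 UMIs, and intestinal cells in sg-Ctrl tumors, at 2640 UMIs. Both lay within the interval of the mast cell median of their group. The log2 ratio of mast cells was closer to 0 than the median over the other 19 annotations, which was -0.64. Its bounds of -0.89 and 0.24 included that median.

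The groups differed at the low end of this distribution. Under 1000 UMIs lay 120 of the 405 mast cells of Cyp51-KO tumors, or 29.6% (25.2 to 34.3%). In sg-Ctrl tumors it was 23 of 169, or 13.6% (8.83 to 19.7%). These intervals lay apart. Cells this shallow were also more frequent among all other cells of Cyp51-KO tumors, at 3.68% (3.32 to 4.07%) against 1.15% (0.917 to 1.43%). In Th1-like cells the shares were 20.8% (17.8 to 24.1%) and 4.49% (2.98 to 6.46%), so mast cells were not alone in this shift. The lower quartile was 822 UMIs in Cyp51-KO tumors and 1471 in sg-Ctrl tumors, and the upper quartiles were 4180 and 5016. Above 1000 UMIs the order of the medians turned, at 3161 in Cyp51-KO tumors and 2747.5 in sg-Ctrl tumors (log2 ratio 0.20), with overlapping intervals. At the other end, 12.1% (9.09 to 15.7%) and 16.0% (10.8 to 22.4%) of the mast cells had 8000 UMIs or more.

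**Figure D1:**
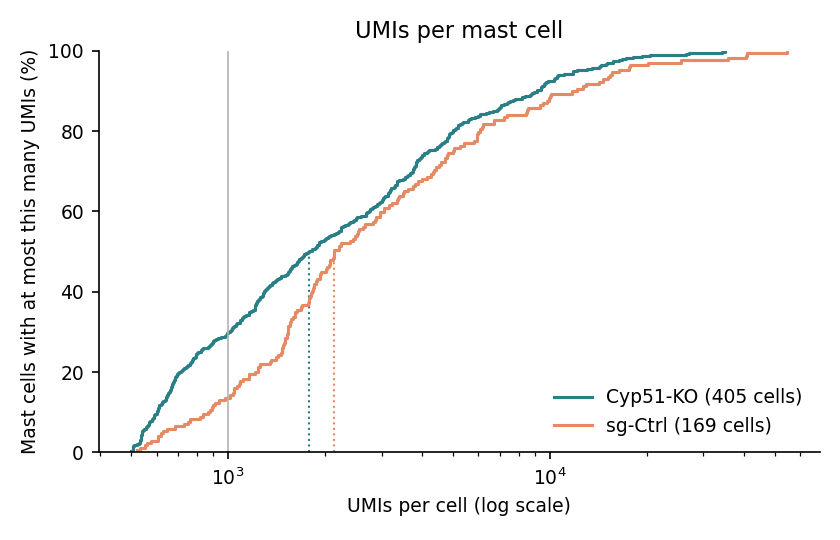
Cumulative percentage of mast cells (y axis) by UMIs per cell (x axis, log scale) in Cyp51-KO (405 cells) and sg-Ctrl (169 cells) tumors, with dotted lines at the medians and a grey line at 1000 UMIs. The Cyp51-KO curve lies above the sg-Ctrl curve at the low end, where 29.6% of Cyp51-KO and 13.6% of sg-Ctrl mast cells lie under 1000 UMIs.

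Neutrophils were the only other myeloid annotation with many cells in this range. Of them, 14.2% (11.4 to 17.3%) in Cyp51-KO tumors and 5.15% (3.29 to 7.62%) in sg-Ctrl tumors had fewer than 1000 UMIs. In the macrophage, monocyte and dendritic annotations the share was at most 2.11% in either group. Mast cells made up 24.4% of all cells under 1000 UMIs in Cyp51-KO tumors (120 of 491 cells) and 22.1% in sg-Ctrl tumors (23 of 104 cells). Of all cells at any depth they were 3.86% and 2.35%, shares that also depend on the tumor and T cells mixed in. Malignant cells were 2428 of 10484 cells in Cyp51-KO tumors and 729 of 7190 in sg-Ctrl tumors. The study had removed cells under 500 UMIs. Close to that limit, under 600 UMIs, lay 39 mast cells of Cyp51-KO tumors (9.63%, 6.94 to 12.9%) and 5 of sg-Ctrl tumors (2.96%, 0.967 to 6.77%).

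The number of mast cells was then set against the other myeloid cells, which by the gates belonged to the same sort. Of myeloid cells, mast cells were 20.8% in Cyp51-KO tumors and 14.1% in sg-Ctrl tumors, which gave a log2 ratio of 0.56 with outer bounds of 0.23 and 0.90. Expressed per 100 other myeloid cells, there were 26.3 mast cells (23.5 to 29.3) in Cyp51-KO tumors and 16.4 (13.8 to 19.3) in sg-Ctrl tumors. Of the difference of 9.91, mast cells under 1000 UMIs made up 5.56, or 56.1%. When cells under 1000 UMIs were left out of every annotation, the share was 16.4% in Cyp51-KO tumors and 12.7% in sg-Ctrl tumors. The log2 ratio was then 0.37, and its bounds of -0.01 and 0.75 included 0. With a minimum of 2000 UMIs it was 0.50, with bounds of 0.03 and 0.99 that lay above 0, and with 4000 UMIs 0.29, with bounds of -0.35 and 0.95. Depth thus moved with the mast cell share, and its part in the difference was not tested.

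The result also depended on which myeloid cells served as the reference. Per 100 neutrophils, the phagocytes that arrive first in inflamed tissue, there were 73.5 mast cells (64.5 to 83.7) in Cyp51-KO tumors and 37.8 (31.5 to 45.2) in sg-Ctrl tumors. Per 100 cells of the macrophage annotation the values were 129 (111 to 149) and 64.8 (53.0 to 78.9). Both comparisons had intervals apart, with log2 ratios of 0.96 and 0.99. The paper reports smaller proportions of neutrophils and macrophages in Cyp51-KO tumors. Cyp51-KO and sg-Ctrl tumors held 551 and 447 neutrophils and 315 and 261 macrophage annotation cells, among 1946 and 1201 myeloid cells. The monocyte annotation held 580 and 281 cells and the dendritic annotation 95 and 43. Each ratio thus depended on the number of reference cells as well as of mast cells. Against the monocyte annotation the values were 69.8 (61.4 to 79.4) and 60.1 (49.4 to 73.0) per 100, with overlapping intervals and a log2 ratio of 0.22. Against the dendritic annotation they were 426 (340 to 539) and 393 (280 to 563), also overlapping, with a log2 ratio of 0.12. The bounds of these last log2 ratios ran from -0.25 to 0.68 and from -0.73 to 0.95, so they did not fix a direction. NK, B and plasma cells by the gates belonged to the bulk leukocyte sort as well. Per 100 of them there were 27.3 mast cells (24.4 to 30.5) in Cyp51-KO tumors and 14.8 (12.5 to 17.4) in sg-Ctrl tumors, intervals apart.

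**Figure D2:**
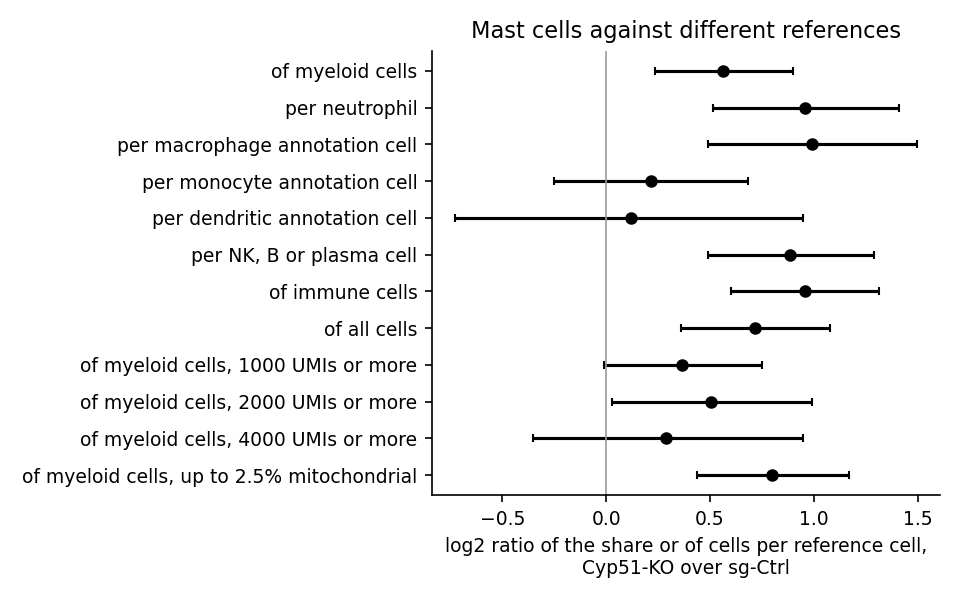
The log2 ratio, Cyp51-KO over sg-Ctrl, of the mast cell share or of mast cells per reference cell (x axis) for several references and filters (y axis). Bars span the outer bounds given by the exact 95% intervals of each group, and are wider than a 95% interval of the ratio. All points lie above 0, and the bars cross 0 for the monocyte and dendritic annotations and with minimums of 1000 or 4000 UMIs.

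Within ranges of UMIs the mast cell share of myeloid cells fell steeply as UMIs rose. Between 500 and 1000 UMIs it was 59.1% (52.0 to 65.9%) in Cyp51-KO tumors and 46.0% (31.8 to 60.7%) in sg-Ctrl tumors. Between 8000 and 16000 UMIs it was 8.46% and 8.37%. Only from 2000 to 4000 UMIs did the intervals of the groups lie apart, at 40.1% (33.4 to 47.0%) of 212 myeloid cells in Cyp51-KO tumors and 17.4% (12.6 to 23.0%) of 219 in sg-Ctrl tumors. In that range sg-Ctrl tumors had 157 neutrophils and Cyp51-KO tumors 62, whereas they had 38 and 85 mast cells. In the range just below, from 1000 to 2000 UMIs, the order was the other way, at 38.5% (32.4 to 44.9%) and 45.7% (36.4 to 55.2%), with overlapping intervals.

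**Figure D3:**
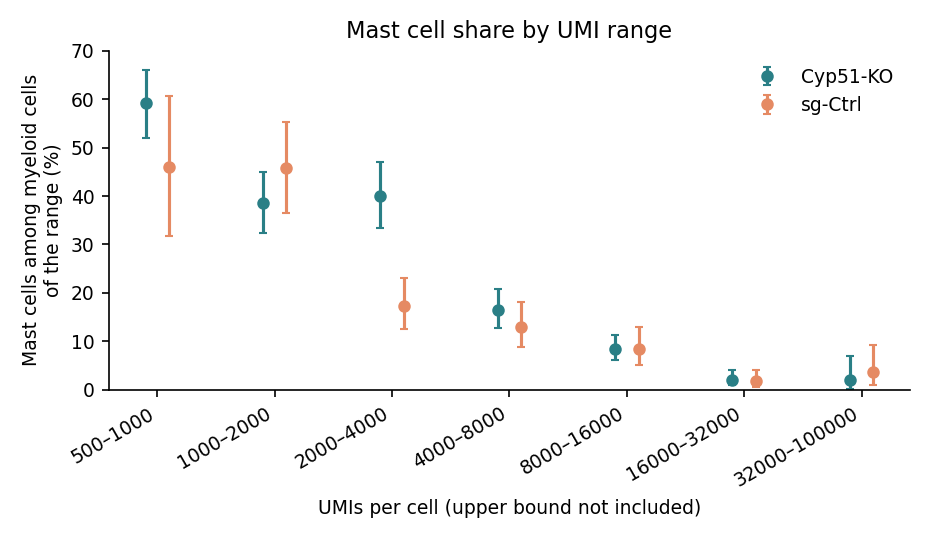
Mast cells as a percentage of the myeloid cells of each UMI range (y axis) in 7 ranges of UMIs per cell (x axis) for both groups, with exact 95% binomial intervals. The share falls from 59.1% and 46.0% in the lowest range to a few percent above 16000 UMIs, and the intervals lie apart in 1 range, from 2000 to 4000 UMIs.

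The mitochondrial percentage, the part of a cell's UMIs that come from genes of the mitochondrial genome, set the groups further apart than UMIs did. In mast cells of Cyp51-KO tumors it ran from 0% to 4.31%, with a median of 0.969% (0.933 to 1.04%). In sg-Ctrl tumors it ran from 0.253% to 4.70%, with a median of 1.77% (1.56 to 1.92%). The single cells overlapped widely, but the upper quartile of the Cyp51-KO cells, 1.44%, lay below the sg-Ctrl median. The log2 ratio of the medians was -0.87, with bounds of -1.04 and -0.59. In mitochondrial UMIs the median mast cell had 21 (18 to 25) in Cyp51-KO tumors and 46 (40 to 59) in sg-Ctrl tumors.

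Mast cells stood at one end of the order of annotations in this measure. Their median in sg-Ctrl tumors was the highest of the 20 annotations, followed by the dendritic annotation at 1.69%, whose interval (1.56 to 1.91%) overlapped that of mast cells. In Cyp51-KO tumors 4 annotations had higher medians, up to 1.45% in B cells. The difference between the group medians was -0.80 percentage points in mast cells (bounds -0.98 and -0.52). In the other 19 annotations it ran from -0.60 in malignant cells to 0.46 in intestinal cells, with a median of -0.23. It was below 0 in 16 of these 19. In the monocyte annotation the difference was -0.47 (-0.55 to -0.37), in the dendritic annotation -0.44 (-0.80 to -0.21) and in the macrophage annotation -0.16 (-0.27 to -0.07). Neutrophils differed in the other direction, at 0.28 (0.20 to 0.36). The bounds of mast cells overlapped those of 4 other annotations, which were malignant cells (-0.68 to -0.53), the CD8 HSP+ annotation (-0.75 to -0.19), and the monocyte and dendritic annotations. On the log2 scale CD8 HSP+ cells came nearest to mast cells, at -0.78 (-1.17 to -0.30). The bounds of the difference in mast cells lay apart from those of the macrophage annotation and of neutrophils.

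Because the percentage fell with UMIs in both groups (Spearman's rho -0.34 over 405 cells and -0.32 over 169, where UMIs are also the denominator), it was compared within UMI ranges. The Cyp51-KO median was lower in 6 of the 7 ranges. From 1000 to 2000 UMIs it was 1.12% (0.965 to 1.38%) against 2.20% (1.63 to 2.44%). From 2000 to 4000 UMIs it was 1.0% (0.896 to 1.09%) against 2.18% (1.90 to 2.46%), and from 4000 to 8000 UMIs 0.791% (0.713 to 0.871%) against 1.43% (1.21 to 1.77%). The intervals lay apart in 4 ranges, from 1000 to 16000 UMIs. Below 1000 UMIs, at 1.23% (1.06 to 1.45%) and 1.98% (1.02 to 3.04%), they overlapped. The exception was the range from 32000 UMIs, which held 2 and 4 mast cells. The difference was thus as large among cells of 1000 UMIs or more, where it was -0.85 percentage points, as among all mast cells.

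**Figure D4:**
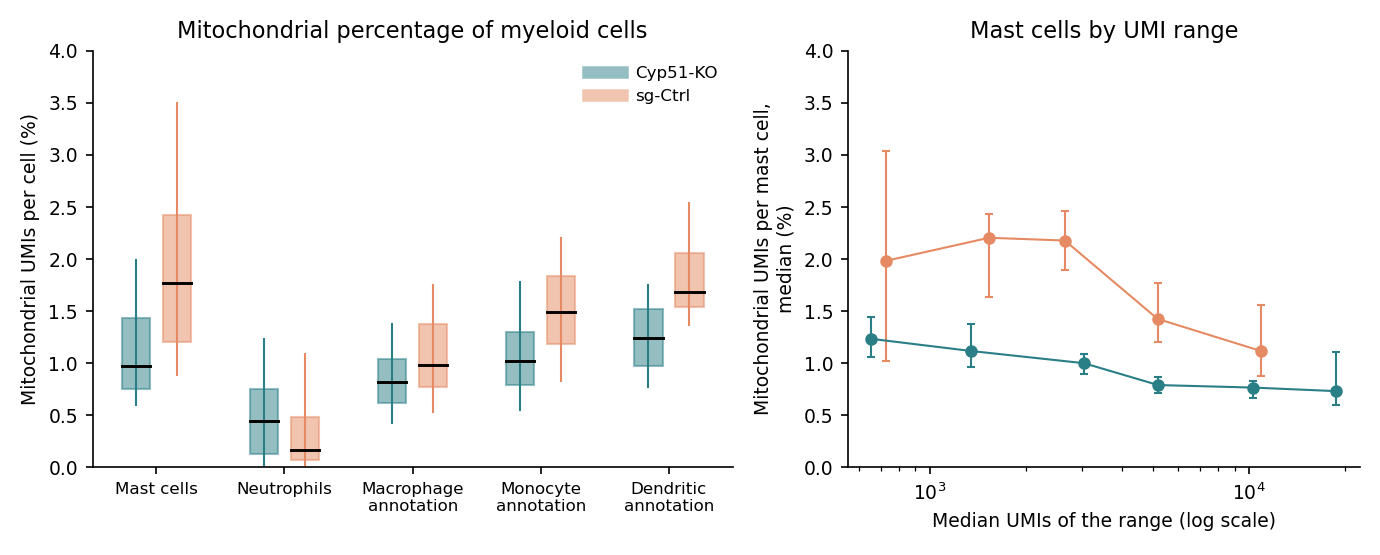
Mitochondrial percentage of UMIs per cell (y axes). On the left are the 5 myeloid annotations by group, with the median (black line), quartiles (box) and 10th to 90th percentiles (line), and on the right the medians of mast cells with exact 95% intervals at the median UMIs of each range (x axis, log scale; ranges with at least 6 mast cells). The sg-Ctrl median of mast cells, 1.77%, is above all others on the left, and on the right the Cyp51-KO points lie below the sg-Ctrl points in every range shown for both groups.

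The upper tail of this measure was read against the limit that the study set. Over 2.5% mitochondrial UMIs had 38 of 169 mast cells in sg-Ctrl tumors (22.5%, 16.4 to 29.5%) and 19 of 405 in Cyp51-KO tumors (4.69%, 2.85 to 7.23%). Over 4% had 7 (4.14%, 1.68 to 8.35%) and 3 (0.741%, 0.153 to 2.15%), with overlapping intervals. Cells above 5% had been removed by the authors, and their number per group was not analysed here. Among myeloid cells of at most 2.5%, mast cells were 20.3% in Cyp51-KO tumors and 11.7% in sg-Ctrl tumors, which gave a log2 ratio of 0.80 (0.44 to 1.17).

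The mitochondrial percentage also set shallow mast cells apart from shallow neutrophils. From 1000 to 2000 UMIs, neutrophils had a median of 0.0788% (0.0631 to 0.103%) in Cyp51-KO tumors and 0.104% (0.0557 to 0.167%) in sg-Ctrl tumors. Mast cells of the same range were at 1.12% and 2.20%. These values describe clusters that were made from the same cells and are no test of the label.

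The number of genes detected was nearly a function of UMIs in mast cells, with a Spearman's rho of 0.99 in both groups. The median mast cell had 811 genes (725 to 958) in Cyp51-KO tumors and 948 (866 to 1138) in sg-Ctrl tumors, with overlapping intervals. At 2000 UMIs a straight line of log10 genes on log10 UMIs gave 871 genes in both groups, with slopes of 0.69. Cells scattered about this line by a factor of 1.10 (SD). From 2000 to 4000 UMIs the medians were 1199 (1110 to 1225) in Cyp51-KO tumors and 1116 (952 to 1206) in sg-Ctrl tumors, where the cells had a median of 3037 and 2644 UMIs. These intervals overlapped, and a difference in gene number between the groups was not established in this range.

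Against neutrophils, mast cells had the higher median number of genes in every UMI range where both had an interval. The intervals lay apart in 1 of 6 ranges in Cyp51-KO tumors and in 3 of 5 in sg-Ctrl tumors, and within a range the median UMIs could differ. From 1000 to 2000 UMIs, where they lay apart in both groups, mast cells of Cyp51-KO tumors had 660 genes (630 to 697) at a median of 1339 UMIs and neutrophils 566 (531 to 585) at 1421. In sg-Ctrl tumors it was 710 (674 to 763) at 1530 UMIs and 597 (543 to 665) at 1529. From 4000 to 8000 UMIs in sg-Ctrl tumors mast cells had 1674 genes (1580 to 1850) at 5162 UMIs and neutrophils 1165 (1127 to 1197) at 5213. In Cyp51-KO tumors that range gave 1680 (1611 to 1822) at 5180 UMIs and 1625 (1525 to 1703) at 5842, with overlapping intervals. Below 1000 UMIs the intervals overlapped in both groups, at 405 (385 to 419) and 388 (366 to 409) genes in Cyp51-KO tumors and 423 (357 to 490) and 421 (364 to 452) in sg-Ctrl tumors. From 4000 to 8000 UMIs, cells of the monocyte annotation had 1923 genes (1815 to 2044) in Cyp51-KO tumors and 2028 (1941 to 2255) in sg-Ctrl tumors. Their median UMIs in that range were 5915 and 6699, however, where mast cells had 5180 and 5162.

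**Figure D5:**
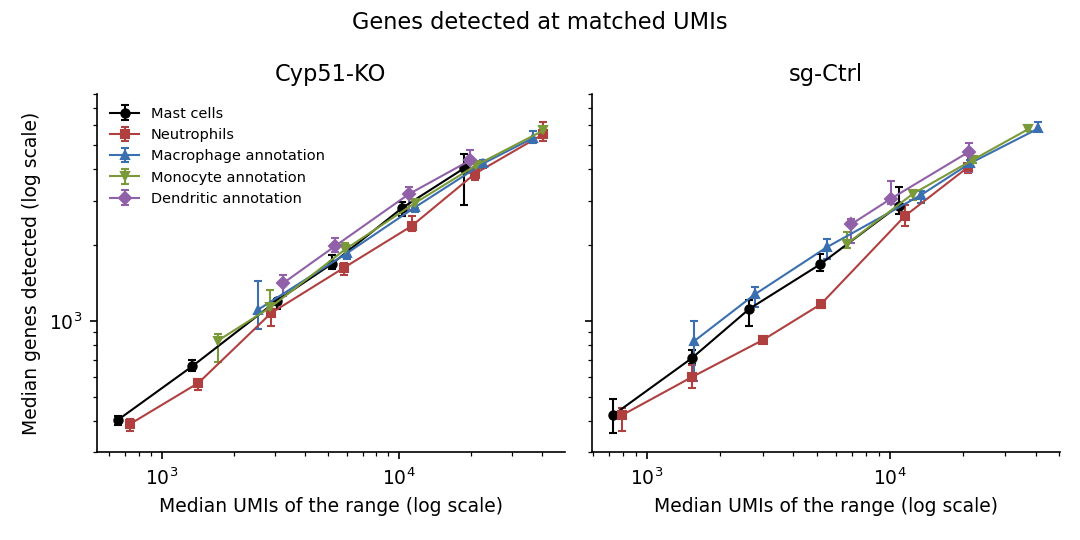
Median genes detected (y axis, log scale) against the median UMIs of each UMI range (x axis, log scale) for the 5 myeloid annotations in Cyp51-KO (left) and sg-Ctrl (right) tumors, with exact 95% intervals, in ranges with at least 6 cells. Mast cells lie on nearly the same line in both groups, with 871 genes fitted at 2000 UMIs in each.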

How the data were processed

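Single cells of CT26 tumors were profiled with a 10x Chromium 5' kit. Per the paper's methods and the submitters' processing notes, the authors made UMI matrices on GRCm38 with Cell Ranger 7.0, merged all samples with Seurat 4.2.0 in R 4.2.0, and removed cells under 200 or over 7000 genes, under 500 or over 100000 UMIs or over 5% mitochondrial UMIs. They normalized with SCTransform, clustered and named the clusters. The deposited table holds 1 line per cell, with raw UMI counts, genes detected and the mitochondrial percentage as the authors computed them. The SCTransform totals in the deposited table are corrected values, treated as a score by the authors' tool and not as counts. Only the corrected number of genes was used, in 1 alternative. For doublets, the sources used here give no step, and no caller was run.

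Groups were read from each cell's name and group column. A group pools its tumors and was 1 sample. Shares carry Clopper-Pearson intervals and medians carry order-statistic intervals, given from 6 cells up. Bounds of a ratio or difference set the lower bound of one group against the upper bound of the other. No thinning to equal UMIs was possible without values per gene, so cells were compared within UMI ranges. The intervals were tested on simulated independent cells only, which cannot show how they hold under differences between tumors, sorts or libraries. No gene was named for a value. The annotation, its markers and the comparisons were chosen with earlier results of these data known. Python 3.11.15 was used with pandas 2.3.3, NumPy 2.4.6, SciPy 1.17.1 and Matplotlib 3.10.9.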

Additional observations from a re-analysis of the deposited data

How the results depend on the processing

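The mast cell share of myeloid cells (log2 ratio 0.56) was 0.96 over immune cells, where the T cells mixed in also enter the reference. With single annotations as the reference it was 0.96 per neutrophil, 0.99 per macrophage annotation cell, 0.22 per monocyte annotation cell and 0.12 per dendritic annotation cell. It was above 0 in all 16 alternatives run, from 0.12 to 0.99. They reuse the same mast cells or part of them, so their shared direction is no independent support. In 5 of them the ratio lay outside the bounds of the main result. The bounds included 0 per monocyte or dendritic annotation cell, with minimums of 1000 or 4000 UMIs, and among cells under 1000 UMIs only. The single references, the UMI limits other than the minimum of 1000, and genes after SCTransform were added with the data in view. With at least 1000 UMIs per cell, the log2 ratio of median UMIs turned from -0.26 to 0.20 and that of genes from -0.23 to 0.11, since this filter left out 120 and 23 mast cells. Genes from 2000 to 4000 UMIs (log2 ratio 0.10) turned with a straight line at 2000 UMIs, to -0.0014 over all mast cells and -0.0061 over those of at least 1000 UMIs, both near 0. The difference in mitochondrial percentage kept its direction in 3 of 3 alternatives, from -0.85 to -0.73. No paired analysis was possible because a cell's group is known but its sample within the group is not, and for the same reason no sample could be left out. Precision is limited by the 169 mast cells of sg-Ctrl tumors and by 1 pool of cells per group.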
